A study of Homo sapiens with 6 samples.

Results

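The 10 genes described here encode the NF-κB transcription factor subunits (NFKB1, NFKB2, REL, RELA and RELB) and a set of inhibitors and induced regulators of the pathway (NFKBIA, NFKBIE, TNFAIP3, BIRC3 and BCL3). They were chosen by symbol from the 34811 genes of the deposited count table, and all 10 had a row and passed the filter on low counts. BIRC3 passed it only through the libraries of the control cells. RNA-seq compared OV3/COX1KD cells, which carry an shRNA against COX-1, with OV3/SCR cells, which carry a scrambled shRNA on the same pRS HuSH-29 plasmid. Both are stable, puromycin-selected derivatives of OVCAR-3, an established ovarian carcinoma cell line grown here in RPMI-1640 with 10% FBS, and 3 independent passages of each were sequenced. Each condition was represented by 1 clone, so the knockdown and other differences between the clones cannot be told apart, and p-values describe the spread between passages of these clones.

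NF-κB acts as dimers of Rel-family subunits that are held in the cytoplasm by IκB proteins. In the canonical arm, IKK marks IκBα for degradation and frees RelA-p50 dimers. In the non-canonical arm, the kinase NIK and IKKα trigger processing of p100, the NFKB2 product, to p52, which pairs with RelB. Several members are themselves NF-κB targets, among them NFKBIA (IκBα), TNFAIP3 (the ubiquitin-editing enzyme A20), BIRC3 (the ubiquitin ligase cIAP2), NFKB2 and RELB, so that the pathway feeds back on itself. In ovarian carcinoma cells NF-κB is known for driving cytokine and chemokine genes.

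The κB site is the element that NF-κB dimers bind. RefSeq promoter windows (GRCh38.p14, 250 bases before to 50 after a start site) were at hand for 8 of the 10 members, all but RELB and NFKBIE. The 10-base κB consensus, which opens with 3 G and a purine and closes with 2 pyrimidines and 2 C, was searched on both strands, and overlapping matches were merged. It was present in a window of 7 of these 8 members, RELA being the one without a match, compared with 13.3% of the 27305 genes with a window (11.3% of 35116 windows). The members were picked as NF-κB genes and several are known targets, so this contrast follows in part from the choice. Genes with several windows, NFKB2 and NFKB1 among them, also have more chances of a match. No conclusion is drawn from the contrast. The stretches around the matches are shown because they place the motif both in members that fell in OV3/COX1KD cells and in members without a call. Capitals mark the matches, and each stretch reads 5′ to 3′ on the gene's strand. NFKB2 had 3 windows, and the most upstream held no match, so both of its stretches lie before later start sites. The second, labeled downstream start, comes from a window with a further match that is not shown. Of the 2 windows of NFKB1, the downstream one held no match. The stretch of BCL3 is the match alone, since it lies after the start site. A match is a string of letters and not a measurement of binding.

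NFKB2, chr10:102394451-102394529 (+): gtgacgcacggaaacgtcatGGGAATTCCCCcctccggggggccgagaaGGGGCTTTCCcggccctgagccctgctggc
NFKB2, downstream start, chr10:102395674-102395703 (+): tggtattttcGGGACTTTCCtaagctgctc
TNFAIP3, chr6:137867172-137867233 (+): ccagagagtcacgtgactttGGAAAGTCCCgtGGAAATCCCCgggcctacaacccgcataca
BIRC3, chr11:102317265-102317378 (+): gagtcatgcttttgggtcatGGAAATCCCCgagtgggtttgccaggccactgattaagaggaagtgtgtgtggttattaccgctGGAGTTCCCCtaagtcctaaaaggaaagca
NFKB1, chr4:102501290-102501339 (+): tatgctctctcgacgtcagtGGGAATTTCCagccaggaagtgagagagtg
REL, chr2:60881507-60881557 (+): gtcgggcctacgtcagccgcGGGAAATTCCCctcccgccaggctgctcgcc
NFKBIA, chr14:35404801-35404850 (-): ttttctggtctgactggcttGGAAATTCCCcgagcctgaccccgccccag
BCL3, chr19:44748710-44748719 (+): GGGAAGTCCC

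The 6 libraries held 25291505 to 27391538 counts, and 17309 genes were tested. The targeted gene, PTGS1, had 641 to 713 counts in OV3/SCR and 456 to 501 in OV3/COX1KD libraries, or -0.45 ± 0.057 (SE) as a log2 fold change (edgeR FDR = 1.3e-06). Its mRNA thus stayed at 73.3% of the control level, and 17.4% of all genes tested had a lower log2 fold change. The authors reported a robust loss of COX-1 protein in the knockdown clones. Of 10 ovarian carcinoma markers 9 were detected above the filter, ESR1 being at 2 counts or fewer, while no leukocyte marker exceeded 16 counts in any library and the summed level of 8 such markers was 1.80 to 2.15 CPM in OV3/SCR and 1.09 to 1.88 CPM in OV3/COX1KD. Of the 9 epithelial markers 7 were higher and 2 lower in OV3/COX1KD, with a summed level of 5588 to 5654 CPM in control and 7179 to 7372 CPM in knockdown libraries. By the rule given below, 25.8% of all genes tested were higher and 22.1% lower. Stromal markers (8 measured, 1 of 3 tested lower, LUM and THY1 at 3 counts or fewer) summed to 11.3 to 11.99 and 6.87 to 7.54 CPM, and endothelial markers (6 measured, 1 of 4 tested higher, CDH5 at 3 counts or fewer) to 16.2 to 18.7 and 15.9 to 17.6 CPM. The part of these shifts in the changes of the NF-κB genes was not tested. COX1KD replicate 2 stood somewhat apart, since its chi-square per degree of freedom was 4.44 and 5.74 against the other COX1KD libraries, compared with 1.74 to 2.91 for the remaining pairs within a condition.

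Of the 10 NF-κB genes, 4 were lower in OV3/COX1KD than in OV3/SCR cells and none was higher. TNFAIP3 and BIRC3 fell to 23.1% and 27.1% of the control level, and the subunit genes NFKB2 and RELB to 61.7% and 62.6%. BIRC3 passed the filter on low counts only through its OV3/SCR libraries. Its place among the lower members is therefore not independent of that filter. NFKB1, REL, RELA, NFKBIA, NFKBIE and BCL3 did not pass the test. A call required an FDR under 0.01 in the quasi-likelihood test of edgeR, Benjamini-Hochberg adjusted across the whole table. By this rule 47.9% of all genes tested differed, with 22.1% lower and 25.8% higher in OV3/COX1KD, beside 4 of 10 members lower. All 4 also passed a log2 fold change of -0.5, compared with 10.0% of all genes, and no member passed 0.5, compared with 9.87%. The libraries of the conditions did not overlap in these 4 genes, a lower separation that 30.7% of all genes tested showed. Without OV3/COX1KD replicate 2, which stood apart, 4 members were again lower, and without OV3/SCR replicate 1, OV3/SCR replicate 3 or OV3/COX1KD replicate 3 the count was 3, BIRC3 being lost. At an unadjusted p under 0.05 the count was again 4 lower and 0 higher, by edgeR and by DESeq2. With scaling by total counts, 4978 genes were lower and 3466 higher, compared with 3820 and 4473 in the main analysis, and 5 members were lower. Since RNA was taken from whole cultures, fewer expressing cells and less RNA per cell cannot be told apart.

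**Figure D1:**
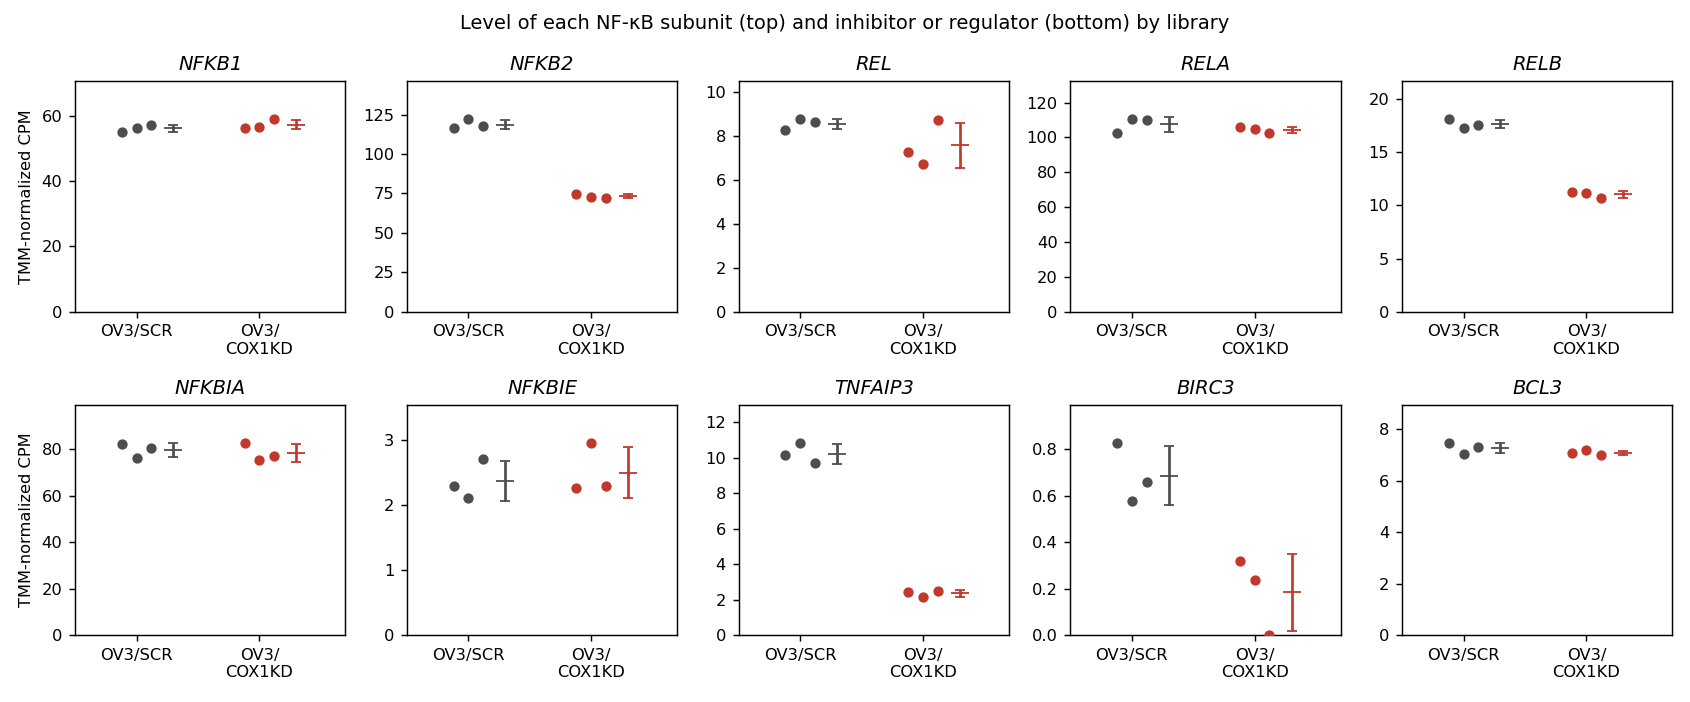
Level of each of the 10 genes (CPM after TMM scaling, axes from 0) in the 3 OV3/SCR (gray) and 3 OV3/COX1KD (red) libraries, with the mean and SD beside the points. The libraries of the 2 conditions do not overlap in NFKB2, RELB, TNFAIP3 and BIRC3, and overlap in the other 6 genes.

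NFKB2 (ENSG00000077150, chromosome 10 of GRCh37 from 104153867 to 104162281) encodes p100 and its product p52. Its level was 116, 122 and 118 TMM-normalized CPM in OV3/SCR replicates 1 to 3 and 74.8, 72.6 and 72.3 in OV3/COX1KD replicates 1 to 3. All 3 OV3/COX1KD libraries were therefore below all 3 OV3/SCR libraries. Control and knockdown means were 119 ± 2.95 and 73.2 ± 1.38 CPM (SD, n = 3), or -0.70 ± 0.035 (SE) as a log2 fold change (edgeR FDR = 1.7e-12).

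RELB (ENSG00000104856, chromosome 19 from 45504719 to 45541450), the partner of p52, had 482, 451 and 453 counts in OV3/SCR and 283, 280 and 285 in OV3/COX1KD libraries. The conditions did not overlap here either, and passages of a clone differed little. Control and knockdown means were 17.6 ± 0.400 and 11.0 ± 0.298 CPM (SD, n = 3), or -0.68 ± 0.066 (SE) as a log2 fold change (edgeR FDR = 3.5e-08). NFKB2 and RELB thus fell side by side. There were 6.43, 7.04 and 6.72 NFKB2 reads for each RELB read with the scrambled shRNA and 6.65, 6.49 and 6.75 with the COX-1 shRNA, and the ranges overlapped (exact permutation test, 2-sided, p = 0.8, adjusted over 4 ratios 0.8).

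The remaining subunits showed no call. RELA (ENSG00000173039, chromosome 11 from 65421070 to 65430561), which encodes p65 of the canonical dimer, had a level of 103, 110.3 and 109.9 CPM in OV3/SCR and 106, 105 and 102 CPM in OV3/COX1KD libraries. The ranges overlapped, and the log2 fold change was -0.04 (95% interval -0.12 to 0.03, edgeR FDR = 0.305). With total count scaling it was -0.12 and passed the threshold (FDR = 0.00528). NFKB1 (ENSG00000109320, chromosome 4 from 103422487 to 103538459), which encodes p105 and p50, had 1467, 1467 and 1474 counts in OV3/SCR and 1417, 1415 and 1567 in OV3/COX1KD libraries. Its log2 fold change was 0.03 (95% interval -0.05 to 0.11, edgeR FDR = 0.563).

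REL (ENSG00000162924, chromosome 2 from 61108626 to 61158747) encodes c-Rel, the subunit best known from lymphoid cells. It had 221, 228 and 223 counts in OV3/SCR and 183, 169 and 232 in OV3/COX1KD libraries, so that OV3/COX1KD replicate 3 lay among the control libraries. The log2 fold change was -0.17 (95% interval -0.38 to 0.03, edgeR FDR = 0.140). A gene model on the same strand, ENSG00000267520, shares 33.3% of the exon length of REL, which makes the counts of REL less certain. For RELA, TNFAIP3 and BIRC3 the shared exon length was 1.89%, 1.47% and 1.68%, and for the other members 0%.

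Per kilobase of exon, the mRNA of RELA and NFKB2 made up most of the subunit pool. The share of NFKB2 was 41.9%, 42.1% and 41.2% in OV3/SCR and 33.03%, 32.5% and 32.7% in OV3/COX1KD libraries, and that of RELA was 37.9%, 38.9% and 39.3% in OV3/SCR and 47.8%, 48.2% and 47.4% in OV3/COX1KD. By this length NFKB2 was the larger share in every control library and RELA in every knockdown library. The share of RELB moved from 11.6% ± 0.527 (SD, n = 3) to 9.20% ± 0.154 (SD, n = 3) and that of NFKB1 from 7.03% ± 0.0990 to 9.12% ± 0.332 (SD, n = 3). REL held 0.981% in OV3/SCR and 1.11% in OV3/COX1KD. Shares are parts of a whole, so a larger share need not mean a higher level. The log2 fold changes of RELA, NFKB1 and REL themselves were -0.04, 0.03 and -0.17, none with a call. The shares were computed from exon lengths of GENCODE 44 on GRCh37, and an exact permutation test of 3 libraries against 3 cannot give a p below 0.1, the value reached by each share (adjusted over 5 subunits 0.1). With the length of the longest transcript in place of all exons the share of NFKB2 went from 40.8% to 31.6% and that of RELA from 39.7% to 48.3%, and the levels of both overlapped in OV3/SCR, so that their order in control cells was not settled. The summed level of the subunits was 50.9 ± 1.15 CPM per kilobase in control and 40.0 ± 0.517 in knockdown cells (SD, n = 3), with the same smallest exact permutation p = 0.1.

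**Figure D2:**
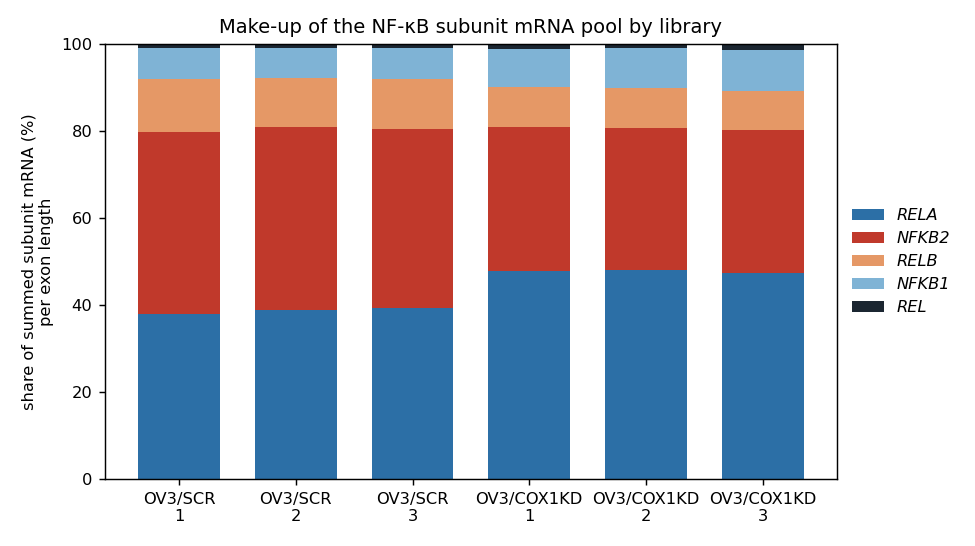
Share of each of the 5 subunit genes in their summed mRNA (percent, counts per exon length) in each of the 6 libraries, as stacked bars. NFKB2 takes 41.2% to 42.1% in control and 32.5% to 33.03% in knockdown bars, and RELA 37.9% to 39.3% and 47.4% to 48.2%.

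TNFAIP3 (ENSG00000118503, chromosome 6 from 138188351 to 138204451) encodes A20, which edits ubiquitin chains on signaling proteins and restrains IKK activation. It had 270, 282 and 251 counts in OV3/SCR and 61, 54 and 67 in OV3/COX1KD libraries. Every knockdown library was far below every control library. Control and knockdown means were 10.2 ± 0.562 and 2.36 ± 0.187 CPM (SD, n = 3), or -2.11 ± 0.11 (SE) as a log2 fold change (edgeR FDR = 3.5e-12). Only 0.664% of all genes tested had a lower log2 fold change. Among the 13011 other genes at or above 1 in mean log2 CPM, the 3 whose centered log2 CPM lay closest to that of TNFAIP3 over the 6 libraries were CDH2, CLSTN2 and TUBA4A, with root mean square differences of 0.080, 0.094 and 0.097. Their log2 fold changes were -2.13, -1.99 and -1.99, and since the libraries come from 1 clone per condition, this likeness is a description without a test.

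BIRC3 (ENSG00000023445, chromosome 11 from 102188215 to 102210134) encodes cIAP2, which ubiquitinates RIPK1 and takes part in the turnover of NIK. It was scarce, with 22, 15 and 17 counts in OV3/SCR and 8, 6 and 0 in OV3/COX1KD libraries. Control and knockdown means were 0.686 ± 0.127 and 0.186 ± 0.166 CPM (SD, n = 3), where 3 counts correspond to 0.113 to 0.120 CPM in a library. The log2 fold change was -1.89 (95% interval -2.92 to -0.85, edgeR FDR = 0.00278). The call was lost without OV3/SCR replicate 1 (-1.73, FDR = 0.0189), without OV3/SCR replicate 3 (-1.91, FDR = 0.0104) and without OV3/COX1KD replicate 3, the library with no reads (-1.29, FDR = 0.0133).

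NFKBIA (ENSG00000100906, chromosome 14 from 35870285 to 35873955) encodes IκBα, the rapidly resynthesized inhibitor of RelA dimers. It was abundant and had no call, with 2195, 1988 and 2081 counts in OV3/SCR and 2080, 1893 and 2058 in OV3/COX1KD libraries. The log2 fold change was -0.02 (95% interval -0.11 to 0.06, edgeR FDR = 0.657), an interval that excludes a fall of the size seen in NFKB2. The ratio of NFKBIA to RELA reads was 0.802, 0.692 and 0.732 in OV3/SCR and 0.781, 0.719 and 0.755 in OV3/COX1KD libraries, and the ranges overlapped (exact permutation test, 2-sided, p = 0.8, adjusted over 4 ratios 0.8).

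NFKBIE (ENSG00000146232, chromosome 6 from 44225903 to 44233525), which encodes the related inhibitor IκBε, had 61, 55 and 70 counts in OV3/SCR and 57, 74 and 61 in OV3/COX1KD libraries. At these counts the 95% interval of its log2 fold change of 0.08 ran from -0.28 to 0.43 (edgeR FDR = 0.715), so that changes within that interval were not excluded. Its ratio to REL was 0.277 ± 0.0363 in OV3/SCR and 0.337 ± 0.0903 in OV3/COX1KD (SD, n = 3, exact permutation test p = 0.5, adjusted 0.8). BCL3 (ENSG00000069399, chromosome 19 from 45250962 to 45263301), a nuclear IκB protein that binds p50 and p52 homodimers, had 199, 184 and 189 counts in OV3/SCR and 178, 180 and 187 in OV3/COX1KD libraries. Its log2 fold change was -0.04 (95% interval -0.22 to 0.15, edgeR FDR = 0.734).

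**Figure D3:**
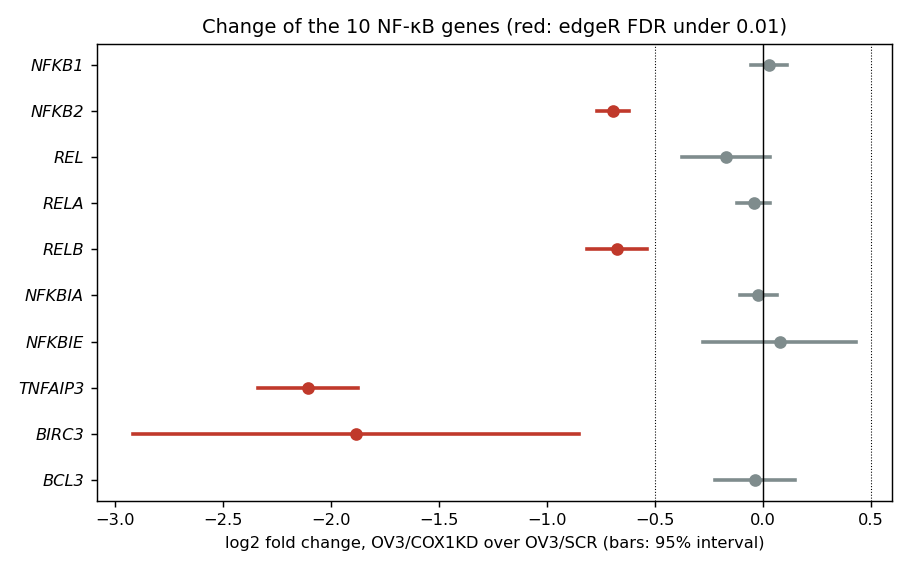
Log2 fold change of OV3/COX1KD over OV3/SCR for the 10 genes (points) with 95% intervals (bars), red where the edgeR FDR was under 0.01. NFKB2, RELB, TNFAIP3 and BIRC3 lie left of -0.5 (dotted), BIRC3 with the widest interval, and the intervals of the other 6 genes include 0.

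The NFKB2 and NFKB1 precursors, p100 and p105, are close relatives, and the ratio of their mRNAs was lower in each knockdown library. There were 2.11, 2.17 and 2.06 NFKB2 reads for each NFKB1 read in OV3/SCR and 1.33, 1.28 and 1.23 in OV3/COX1KD libraries, a difference of -0.72 in the log2 ratio. The ranges did not overlap, and the exact permutation p = 0.1 is the smallest that 3 against 3 can give (adjusted over 4 ratios 0.4).

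Per kilobase of exon, the order of the members in OV3/SCR was NFKBIA at 23.5 ± 0.914 CPM per kilobase, NFKB2 at 21.2 ± 0.528, RELA at 19.7 ± 0.784, RELB at 5.89 ± 0.133, NFKB1 at 3.58 ± 0.0641, BCL3 at 2.35 ± 0.0659, TNFAIP3 at 1.59 ± 0.0872, NFKBIE at 0.918 ± 0.119, REL at 0.499 ± 0.0139 and BIRC3 at 0.0917 ± 0.0170 (SD, n = 3). In OV3/COX1KD, NFKB2 at 13.1 ± 0.247 CPM per kilobase stood below RELA at 19.1 ± 0.337, and TNFAIP3 at 0.367 ± 0.0290 below NFKBIE at 0.970 ± 0.151 and REL at 0.442 ± 0.0593 (SD, n = 3). RELB at 3.68 ± 0.0993 and NFKB1 at 3.65 ± 0.0897 overlapped there. The order depended on the length used. By the longest transcript NFKBIA lay in OV3/SCR at 31.1 ± 1.21 CPM per kilobase, below NFKB2 at 34.8 ± 0.864 and RELA at 33.8 ± 1.34 (SD, n = 3) without overlapping either, NFKB2 and RELA overlapped, and so did NFKB1 and RELB. In OV3/COX1KD the levels of RELA and NFKBIA then overlapped, and NFKB1 at 8.12 ± 0.200 stood above RELB at 4.89 ± 0.132 CPM per kilobase (SD, n = 3).

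The genes that flank the lower members were set beside each of them. Within 1 Mb of TNFAIP3, 9 genes at or above 1 in mean log2 CPM had log2 fold changes from -0.50 to 0.56 (median -0.14), and none was as low as TNFAIP3. The 6 such genes near BIRC3 ranged from -0.21 to 0.52 (median 0.24), and among them the adjacent paralog BIRC2, which encodes cIAP1, had 680 to 685 counts in OV3/SCR and 716 to 733 in OV3/COX1KD libraries, or 0.12 ± 0.050 (SE) as a log2 fold change (edgeR FDR = 0.0483). Near NFKB2 the median of 32 genes was 0.02 and 3 were as low, and near RELB the median of 48 genes was -0.05 and 1 was as low. Of all genes tested, 0.664% had a lower log2 fold change than TNFAIP3, 0.884% than BIRC3, 9.35% than NFKB2 and 9.84% than RELB. With shares this small and few flanking genes, no conclusion is drawn from these counts.

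Upstream of the subunits, changes among the kinases were small. Of 13 genes for the IKK complex and upstream kinases, 6 were lower (46.2%), 1 was higher (7.69%) and 6 had no call. Among all genes tested 22.1% were lower and 25.8% higher. The median log2 fold change of the 13 genes was -0.18, compared with -0.01 over all genes tested. IKBKG (NEMO, the regulatory IKK subunit) had 649, 625 and 606 counts in OV3/SCR and 399, 447 and 408 in OV3/COX1KD libraries, or -0.55 ± 0.063 (SE) as a log2 fold change (edgeR FDR = 3.3e-07), although its near-identical pseudogene copy makes these counts uncertain. IKBKE and TBK1, the IKK-related kinases, fell by 0.28 (FDR = 0.00452) and 0.27 (FDR = 2.6e-05) on the log2 scale, and TAB2, an adaptor of TAK1, rose by 0.34 (FDR = 8.3e-07). CHUK (IKKα), with 1247 to 1271 counts in OV3/SCR and 1053 to 1154 in OV3/COX1KD libraries, fell by 0.16 on the log2 scale (standard error 0.042, edgeR FDR = 0.00292). MAP3K14 (NIK) had 197, 166 and 165 counts in OV3/SCR and 140, 150 and 143 in OV3/COX1KD libraries, and this difference did not pass (-0.25 ± 0.10 (SE) on the log2 scale, edgeR FDR = 0.0414), although it did with total count scaling (-0.33, FDR = 0.0098). With DESeq2 the calls of CHUK (FDR = 0.0109) and IKBKE (FDR = 0.0206) were lost. The call of CHUK was also lost without OV3/SCR replicate 2 (FDR = 0.0109), OV3/SCR replicate 3 (0.0201) or OV3/COX1KD replicate 1 (0.0224), and that of IKBKE without OV3/SCR replicate 2 (FDR = 0.0244), OV3/SCR replicate 3 (0.0168) or OV3/COX1KD replicate 3 (0.0207). The count of lower kinases was 3 without OV3/SCR replicate 2, without OV3/SCR replicate 3, with DESeq2 and with no filter on low counts.

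Of 3 further IκB genes, 2 were lower, NFKBID (IκBNS) with a log2 fold change of -0.42 (edgeR FDR = 2.9e-05) and NFKBIB (IκBβ) with -0.20 (edgeR FDR = 9.6e-05). None was higher, and NFKBIZ had a log2 fold change of -0.13 (edgeR FDR = 0.0348). Among 10 tested deubiquitinases and A20-binding proteins, 4 were lower (40.0%) and 1 higher (10.0%), with a median of -0.07. Beside these and the IκB counts, 22.1% of all genes tested were lower and 25.8% higher. TNIP2 (ABIN-2), an A20 partner, fell from 57.9 ± 0.858 to 37.1 ± 0.708 CPM (SD, n = 3), a log2 fold change of -0.64 (edgeR FDR = 7.0e-11). CYLD, which like A20 removes ubiquitin from the pathway, fell by 0.42 (edgeR FDR = 2.9e-04) and OTULIN by 0.31 (edgeR FDR = 4.0e-04) on the log2 scale, and TAX1BP1 rose by 0.12 (edgeR FDR = 0.00303). The call of TAX1BP1, the 1 higher gene, was lost with total count scaling (0.045, FDR = 0.247), with DESeq2 (FDR = 0.0126) and without OV3/SCR replicate 1 (FDR = 0.0138), OV3/SCR replicate 3 (0.0294) or OV3/COX1KD replicate 1 (0.0108).

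Of 18 adaptors and ubiquitin ligases, 7 were lower (38.9%) and 2 higher (11.1%), compared with 22.1% and 25.8% of all genes. The median log2 fold change of the list was -0.20. CARD10 (CARMA3, a scaffold that links surface receptors to IKK) had 510, 450 and 463 counts in OV3/SCR and 243, 256 and 257 in OV3/COX1KD libraries, or -0.88 ± 0.071 (SE) as a log2 fold change (edgeR FDR = 2.0e-09). RBCK1 (HOIL-1) fell by 0.34 (edgeR FDR = 1.4e-06) and TRAF2, which recruits the cIAP ligases, by 0.33 (edgeR FDR = 4.0e-05) on the log2 scale, while SHARPIN rose by 0.24 (edgeR FDR = 1.3e-05) and XIAP by 0.15 (edgeR FDR = 0.00169). The call of XIAP was lost with total count scaling (0.077, FDR = 0.0952), with DESeq2 (FDR = 0.0102) and without OV3/SCR replicate 2 (FDR = 0.0132) or OV3/COX1KD replicate 1 (0.0119), which left 1 higher gene.

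Of 14 receptors tested, 3 were lower (21.4%) and 5 higher (35.7%), compared with 22.1% and 25.8% of all genes, with a median log2 fold change of 0.03. The count of higher receptors was 3 with total count scaling, with DESeq2, and without OV3/SCR replicate 1, OV3/SCR replicate 3 or OV3/COX1KD replicate 1. IL1R1, the signaling receptor of IL-1, had 1150, 1173 and 1147 counts in OV3/SCR and 148, 108 and 136 in OV3/COX1KD libraries, or -3.11 ± 0.075 (SE) as a log2 fold change (edgeR FDR = 3.0e-17). Its co-receptor IL1RAP rose from 45.9 ± 1.57 to 97.9 ± 6.30 CPM (SD, n = 3), a log2 fold change of 1.09 (edgeR FDR = 1.2e-13). IL18R1 fell with a log2 fold change of -1.15 (edgeR FDR = 5.5e-06) and TNFRSF12A, the TWEAK receptor, with -0.87 (edgeR FDR = 9.1e-15). TLR5 (1.51, edgeR FDR = 6.45e-06) and TNFRSF1A, the main TNF receptor (0.23, edgeR FDR = 4.2e-05), were higher.

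Among genes known as NF-κB targets, 20 of 34 measured passed the filter, and the 14 others, TNF and PTGS2 among them, had too few counts to test. Of the tested targets, 12 were lower (60.0%), 3 higher (15.0%) and 5 had no call, compared with 22.1% lower and 25.8% higher among all genes. The median log2 fold change was -0.69. IL6, CCL20, IL8 and CXCL3, all lower, would not have passed the filter by their OV3/COX1KD libraries alone. The count of lower targets and the median therefore depend in part on the filter. The list was also chosen with earlier results of these data known. It holds genes that the authors had reported as lower in OV3/COX1KD, CXCL1, IL8 and IL6 among them. IL8, a neutrophil chemokine, had 207, 153 and 141 counts in OV3/SCR and 9, 5 and 11 in OV3/COX1KD libraries, or -4.27 ± 0.24 (SE) as a log2 fold change (edgeR FDR = 8.2e-12). CXCL1, of the same chemokine cluster, had 227, 217 and 190 counts in OV3/SCR and 75, 59 and 63 in OV3/COX1KD libraries (log2 fold change -1.65, edgeR FDR = 6.9e-10), and shares sequence with CXCL2 and CXCL3, so that its counts are uncertain. IRF1 fell from 15.9 ± 0.493 to 8.08 ± 0.430 CPM (SD, n = 3, log2 fold change -0.98, edgeR FDR = 9.8e-10). In contrast, CD83 (0.87, edgeR FDR = 6.8e-05), the caspase-8 regulator CFLAR (0.29, edgeR FDR = 2.5e-05) and LCN2 (0.24, edgeR FDR = 0.00215) were higher on the log2 scale. The call of LCN2 was lost with total count scaling (FDR = 0.0271) and without OV3/SCR replicate 1 (FDR = 0.0176) or OV3/SCR replicate 2 (0.0152). IL6 and CCL20 had 3 counts or fewer in each OV3/COX1KD library, so their falls are given as bounds of at least 7.40-fold and 6.09-fold. Both bounds lie below the list median, so setting the genes at them could not move it from -0.69 and is no check of it.

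Over the 92 distinct pathway genes measured outside the 10 members, 76 were tested. Of these, 34 were lower (44.7%) and 12 higher (15.8%), compared with 22.1% lower and 25.8% higher among all genes. The 34 include the targets that would not have passed the filter by their OV3/COX1KD libraries alone. With total count scaling 43 were lower and 7 higher. These lists were chosen with earlier results of these data known, are described by their counts, and no set test was run.

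**Figure D4:**
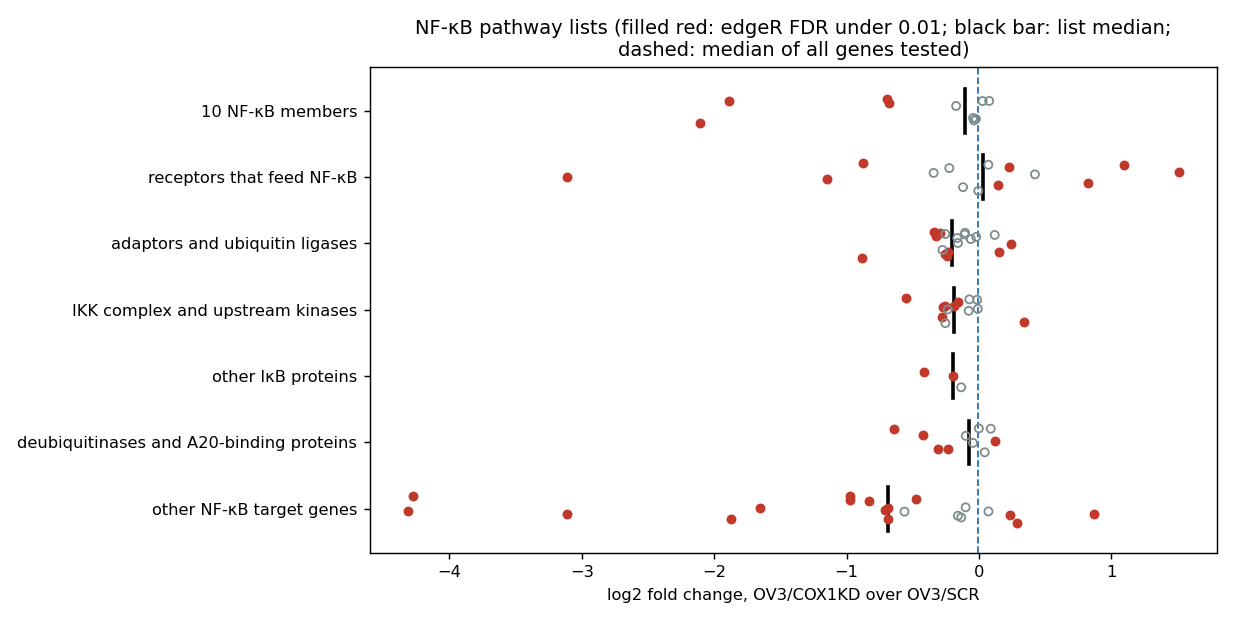
Log2 fold change of OV3/COX1KD over OV3/SCR (horizontal axis) of each tested gene in the 10 members and 6 pathway lists (rows), filled red where the edgeR FDR was under 0.01, with the list median (black bar) and the median of all genes tested (dashed). The median of the target list lies at -0.69, that of the receptors at 0.03, and the kinases, adaptors and IκB genes between -0.20 and -0.18.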

How the data were processed

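RNA-seq libraries of 3 OV3/SCR and 3 OV3/COX1KD passages were analysed. Per the methods, reads were mapped to hg19 by TopHat2, and the authors deposited unnormalized HTSeq counts per gene. The annotation and the strand setting of the counting are not given in the sources used here. Tests used edgeR 4.0.16 under R 4.3.3 (as main test; TMM scaling, filterByExpr, glmQLFit and glmQLFTest with condition as the only factor, Benjamini-Hochberg adjustment over 17309 genes). DESeq2 1.42.0 was an alternative. The standard error is the log2 fold change divided by the square root of F, and the 95% interval uses the t quantile of the fit. Shares and ratios were tested by exact permutation in scipy 1.17.1. Coordinates and exon lengths came from GENCODE 44 on GRCh37 (33556 of 34811 genes matched), promoter windows from RefSeq on GRCh38.p14. Scripts were tested on simulated data. The 10 members, the gene lists and the naming rule (each list's 3 largest called changes per direction at or above 1 in mean log2 CPM, plus CHUK and MAP3K14) were chosen with earlier results of these data known. Neighboring genes, IKBKB, RNF31, BCL10, MALT1, NFKBIZ, BIRC2, CXCL3, IL6 and CCL20 were named after their values were seen. Alternatives were RLE and total count scaling, no filter, at least 10 counts in every library, DESeq2, a replicate block and leaving out each library, and for shares and ratios the longest transcript or 1 added count. Library totals of 25291505 to 27391538 set the precision, and 3 counts corresponded to 0.113 to 0.120 CPM. This floor covers counting error only, since PCR copies are not independent molecules. Of the listed genes, 10 were not analysed here.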

Additional observations from a re-analysis of the deposited data

How the results depend on the processing

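The falls of NFKB2, RELB and TNFAIP3 passed an FDR of 0.01 under all 12 alternatives, with log2 fold changes from -0.77 to -0.67, from -0.75 to -0.65 and from -2.19 to -2.04. BIRC3 could not be tested with at least 10 counts in every library and ranged from -2.51 to -1.29 when single libraries were left out. Between 3 and 5 members were lower and 0 higher in every setting. Total count scaling moved NFKB1 to -0.050 and NFKBIE to -7.6e-05, brought RELA past the threshold at -0.12, and left 7 list genes higher. With single libraries left out, NFKBIA ranged from -0.060 to 0.010, NFKBIE from -0.049 to 0.19, the log2 ratio of NFKBIA to RELA from -0.028 to 0.078 and that of NFKB2 to RELB from -0.053 to 0.013, so that their signs are not settled. Of 347 values of the named list genes under alternatives, 324 kept their direction and call, 22 lost the call, 1 gained it and none changed sign. The replicate number as a block gave 4 members lower and 0 higher and changed no call of a member, with a log2 fold change of -0.70 for NFKB2. Same-numbered libraries deviated from their group means with correlations of -0.0072, 0.046 and 0.035 across genes, which are not independent replicates, so the numbers were not taken as pairs. Depth limits the scarce members, BIRC3 and NFKBIE.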

Other observations

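Parts of some known complexes that feed NF-κB did not move together, a comparison chosen after the values were seen. In the IKK complex, by contrast, CHUK (log2 fold change -0.16), IKBKB (IKKβ, -0.26, edgeR FDR = 2.2e-05) and IKBKG (-0.55) were each lower. The limits given above for CHUK and IKBKG apply here too. Of the linear ubiquitin ligase complex, RBCK1 was lower (log2 fold change -0.34), SHARPIN was higher (0.24), and RNF31, the catalytic subunit, had 1003, 975 and 916 counts in OV3/SCR and 868, 828 and 938 in OV3/COX1KD libraries (log2 fold change -0.10, edgeR FDR = 0.0673). Of the CARMA-BCL10-MALT1 scaffold, CARD10 was lower (-0.88), while BCL10 with 320 to 344 counts in OV3/SCR and 287 to 329 in OV3/COX1KD libraries (-0.06, edgeR FDR = 0.495) and MALT1 with 724 to 743 and 665 to 771 counts (-0.02, edgeR FDR = 0.755) had no call.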
